A study of Mus musculus with 18 samples.

Results

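The report describes 8 genes by which pancreatic β-cells take up and sense glucose and set their membrane excitability. They are Slc2a2, G6pc2, Abcc8, Kcnj11, Kcnk16, Cacna1c, Cacna1d and Cacnb2, taken as a named list from 17207 genes with reads. RefSeq mRNA transcripts were assigned to gene symbols, and the counts of all transcripts of a gene were summed. MIN6 cells, a mouse insulinoma line, were treated with the vehicle DMSO for 18 h (control), with 200 µM CPA for 1 h (CPA1) or with 200 µM CPA for 18 h (CPA18), all in the same high-glucose medium. CPA (cyclopiazonic acid) blocks the calcium pump of the endoplasmic reticulum (ER). The question was how the transcriptome and its translation differ between acute and chronic ER stress. mRNA-seq and Ribo-seq, which sequences ribosome-protected mRNA fragments, were each performed in 3 independent experiments per treatment, giving 18 libraries. The control received DMSO for 18 h only, so CPA1 had no vehicle control of its own duration, and MIN6 is 1 tumour line that lacks the other cells of an islet.

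Glucose enters the mouse β-cell through GLUT2, the product of Slc2a2, and is phosphorylated inside the cell. G6pc2 encodes the islet form of the glucose-6-phosphatase catalytic subunit, which removes that phosphate again. Metabolism of glucose raises ATP and closes the KATP channel, which is built from the pore subunit Kir6.2 (Kcnj11) and the sulfonylurea receptor SUR1 (Abcc8). The membrane then depolarizes, L-type calcium channels open and calcium triggers exocytosis of insulin. Cacna1c and Cacna1d encode pore subunits of L-type channels and Cacnb2 an auxiliary β subunit. Kcnk16 encodes TALK-1, a two-pore potassium channel of the islet.

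Total counts per library ranged from 520960 to 4755030 in mRNA-seq and from 168129 to 1083297 in Ribo-seq, with the shallowest libraries in Ribo-seq CPA18. Transcripts of Lars2 took 38.1% to 54.8% of the reads in 4 of 9 mRNA-seq libraries (control, CPA1 and CPA18 of experiment 1 and CPA1 of experiment 2) and 4.75% to 15.1% in the others. Their share in Ribo-seq was 0.083% to 3.51%. Levels are given as RPKM, reads per kilobase of transcript scaled to the total of counted reads, so a transcript that takes many reads lowers all other values of its library. For this reason calls are given below with the total taken without Lars2, Ins1 and Ins2 where that changed them. All 10 β-cell markers on a fixed list, among them Ins1, Ins2 and Pdx1, had reads in every treatment. The α-cell list (Gcg and Ttr among its 5 genes) summed to 952 to 2627 RPKM in control mRNA-seq and 150 to 403 in CPA18. Of these 5 genes, 3 had enough reads to be tested in mRNA-seq, and 1 of them, Ttr, was called lower in CPA18 than in control (edgeR). The 3 δ-cell markers summed to at most 15.4 RPKM in any library and the PP-cell marker Ppy to at most 19.7. The 5 acinar markers summed to at most 1.37 RPKM and the 5 fibroblast markers to at most 1.38.

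Promoter sequences of 3 genes whose level fell in both assays, Slc2a2, G6pc2 and Kcnk16, are shown to give the DNA directly before these mRNAs. RefSeq start sites of GRCm38.p6 were matched for 6 of 8 genes, with 11 start sites between them. The 250 bases upstream of the start are given for Slc2a2 (chr3:28697653-28697902, plus strand), for the start shared by 2 of 3 G6pc2 mRNAs (chr2:69219699-69219948, plus strand) and for Kcnk16 (chr14:20269270-20269519, minus strand), each 5′ to 3′ in the direction of transcription. Capitals mark matches on either strand to CANNTG, the E-box core bound by basic helix-loop-helix factors, and to TGCTGA, the half-site of the MAF recognition element. Matches that touch each other run together.
Slc2a2: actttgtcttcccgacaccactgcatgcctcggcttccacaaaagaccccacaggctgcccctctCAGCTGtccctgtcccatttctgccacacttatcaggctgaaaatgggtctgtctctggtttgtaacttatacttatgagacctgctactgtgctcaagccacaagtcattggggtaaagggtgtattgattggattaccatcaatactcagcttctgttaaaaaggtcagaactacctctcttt
G6pc2: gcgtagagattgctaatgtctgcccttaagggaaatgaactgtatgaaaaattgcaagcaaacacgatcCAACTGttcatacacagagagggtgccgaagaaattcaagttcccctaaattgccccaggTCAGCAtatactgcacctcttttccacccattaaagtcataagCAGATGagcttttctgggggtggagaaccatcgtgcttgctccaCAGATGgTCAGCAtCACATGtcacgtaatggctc
Kcnk16: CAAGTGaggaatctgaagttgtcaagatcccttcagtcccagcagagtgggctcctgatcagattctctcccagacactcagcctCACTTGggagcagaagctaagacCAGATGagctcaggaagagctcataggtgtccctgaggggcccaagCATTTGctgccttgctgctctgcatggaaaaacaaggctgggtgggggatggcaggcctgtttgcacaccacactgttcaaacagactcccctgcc

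CANNTG matched 1 time in the Slc2a2 window, 185 bases before the start, and 4 times each in the G6pc2 and Kcnk16 windows. TGCTGA matched 2 times in the G6pc2 window, 121 and 27 bases before the start, and in neither of the other windows shown. This half-site did not match in the window of the other G6pc2 start. It did match in Cacna1c windows, 182 and 203 bases before their starts. The E-box core also matched in windows of Cacna1c, Cacna1d and Cacnb2. These calcium channel genes did not pass the test for a change in level. Whether either motif goes with a fall in level was not tested. Of 32851 RefSeq windows of the same length, 66.2% held CANNTG and 16.1% held TGCTGA. Among 10 motifs searched, 4 matched in the windows of the 6 genes and 6 did not, and the 2 marked motifs were chosen after their matches were seen. The windows with a match to TATAAA (12.4% of all windows) and TGATGNAA (3.45%) belonged to Cacna1d and Cacna1c. No match was found for the homeodomain core TAATTA (4.84% of all windows), the cyclic AMP response element TGACGTCA (1.55%) and the forkhead core TGTTTAC (3.17%). Nor was one found for CATATG (3.46%), itself a form of CANNTG, or for the longer NFAT:AP-1 composite (1.29%) and HNF1 consensus (0.371%). A match is a run of letters and was not tested as a binding site.

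In control cells, G6pc2 had the highest mRNA level of the 8 genes, at 380 ± 161 RPKM (SD, n = 3). Kcnj11 (60.7 ± 18.0 RPKM) and Abcc8 (60.1 ± 4.76) followed with overlapping ranges, above Slc2a2 (24.4 ± 13.3) and Kcnk16 (13.8 ± 8.62), whose ranges also overlapped. The calcium channel genes had the lowest means, with 2.28 ± 2.32 RPKM for Cacnb2, 1.57 ± 0.847 for Cacna1c and 0.577 ± 0.447 for Cacna1d, and their ranges overlapped with one another. Cacnb2 also overlapped with Kcnk16 and lay above it in experiment 1. In Ribo-seq the order of the control levels was G6pc2 (1446 ± 123.2 RPKM), Abcc8 (114 ± 15.4), Slc2a2 (95.03 ± 26.4), Kcnj11 (41.6 ± 1.04), Kcnk16 (10.7 ± 1.02), Cacna1c (2.47 ± 0.457), Cacnb2 (1.27 ± 0.950) and Cacna1d (1.12 ± 0.524). Abcc8 and Slc2a2 overlapped there, as did Cacnb2 with both other calcium channel genes, whereas Cacna1c lay above Cacna1d without overlap. By its mean over control libraries, G6pc2 ranked 31 of 7981 tested genes in Ribo-seq and 160 of 10544 in mRNA-seq, whereas Cacna1d ranked 10232 of 10544 in mRNA-seq. These levels are RPKM summed over the transcripts of a gene, 3 for G6pc2 and 1 each for Slc2a2 and Kcnk16. Ranks and order between genes depend on this sum, and the level of G6pc2 was lower by its most-read transcript. RPKM is also scaled to the whole transcript, whereas footprints come mostly from its coding part. The Ribo-seq ranks and order therefore also depend on the coding share of each mRNA, which was not examined. Reads on the calcium channel genes were few, from 1 to 14 per mRNA-seq library for Cacna1d, which limits what could be detected for them.

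**Figure D1:**
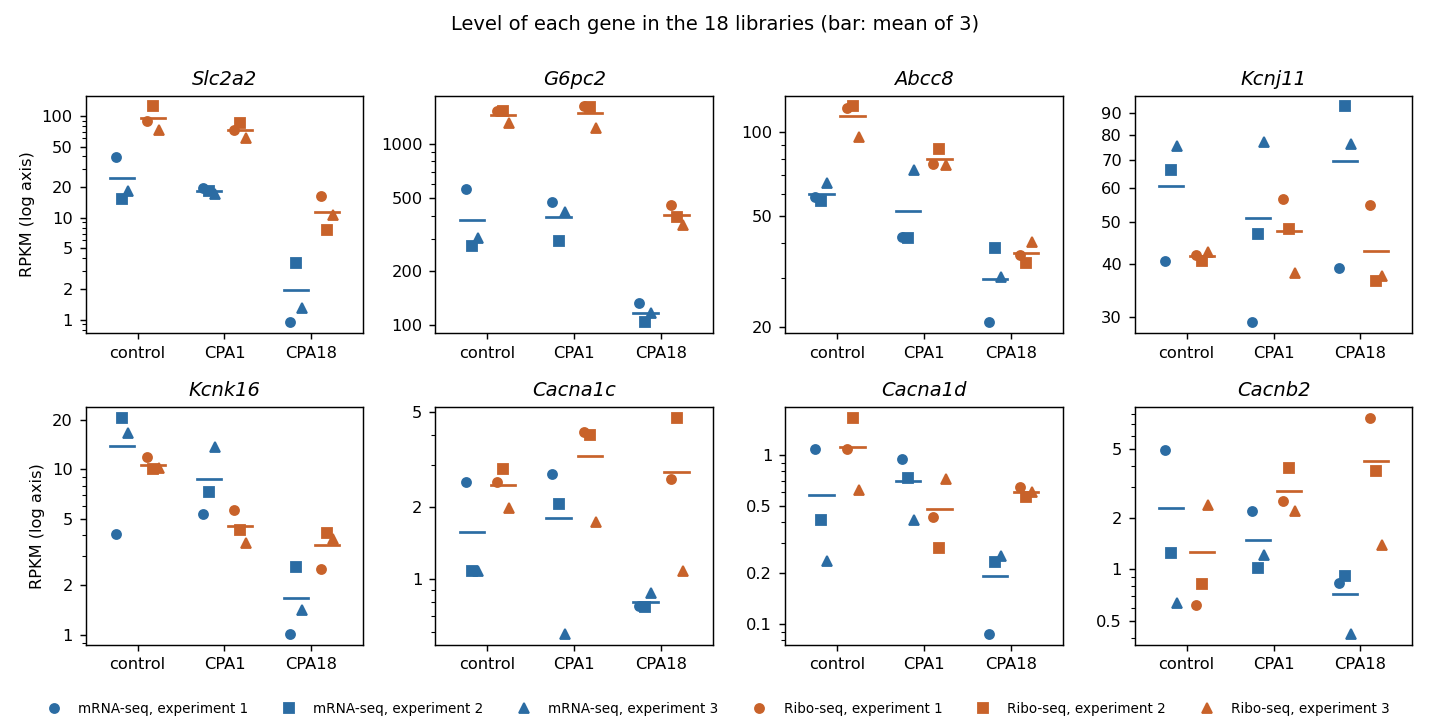
RPKM of each of the 8 genes (log axis) in control, CPA1 and CPA18, with mRNA-seq in blue, Ribo-seq in orange, 1 symbol per experiment and a bar at the mean of 3. Slc2a2, G6pc2, Abcc8 and Kcnk16 sit lower in CPA18 than in control in both assays without overlap, and Kcnj11 overlaps between treatments.

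After 18 h of CPA, the genes for glucose entry (Slc2a2, 10.0-fold lower than control in mRNA-seq), glucose-6-phosphate turnover (G6pc2, 3.09-fold), the sulfonylurea receptor (Abcc8, 2.03-fold) and TALK-1 (Kcnk16, 7.72-fold) fell, while the KATP pore gene Kcnj11 and the 3 calcium channel genes did not pass the test. In mRNA-seq, 4 of 8 genes fell and 0 rose at an adjusted p under 0.05 (edgeR's quasi-likelihood test), where 7.13% of all 10544 tested genes fell and 18.9% rose. In Ribo-seq the same 4 fell among the 6 that could be tested, where 6.88% of 7981 genes fell and 21.6% rose. Cacna1d and Cacnb2 had a mean of 4.33 and 4.56 reads per Ribo-seq library, below the minimum of 5. The genes were chosen with these results known, so the shares describe the list and test nothing about it. The median change of the 8 genes in mRNA-seq was -1.09 on the log2 scale, beside 0.31 for all genes tested. In Ribo-seq it was -1.54 over the 6 genes, beside 0.33.

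The scale of all changes depends on the library total. With TMM scaling the median of all genes in CPA18 against control became -0.10 in mRNA-seq and 0.020 in Ribo-seq, and the genes called in mRNA-seq split into 1179 higher and 1677 lower in place of 1990 and 752. In Ribo-seq the split became 919 higher and 956 lower in place of 1721 and 549. The 4 genes that fell were lower under each scaling tried. Beside them, 9 of 10 β-cell markers fell in CPA18 in both assays. Their summed mRNA level ranged from 154700 to 457500 RPKM in control and from 42630 to 131500 in CPA18, and their part in the results was not tested. In bulk libraries, fewer cells of a type and less RNA per cell cannot be told apart.

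**Figure D2:**
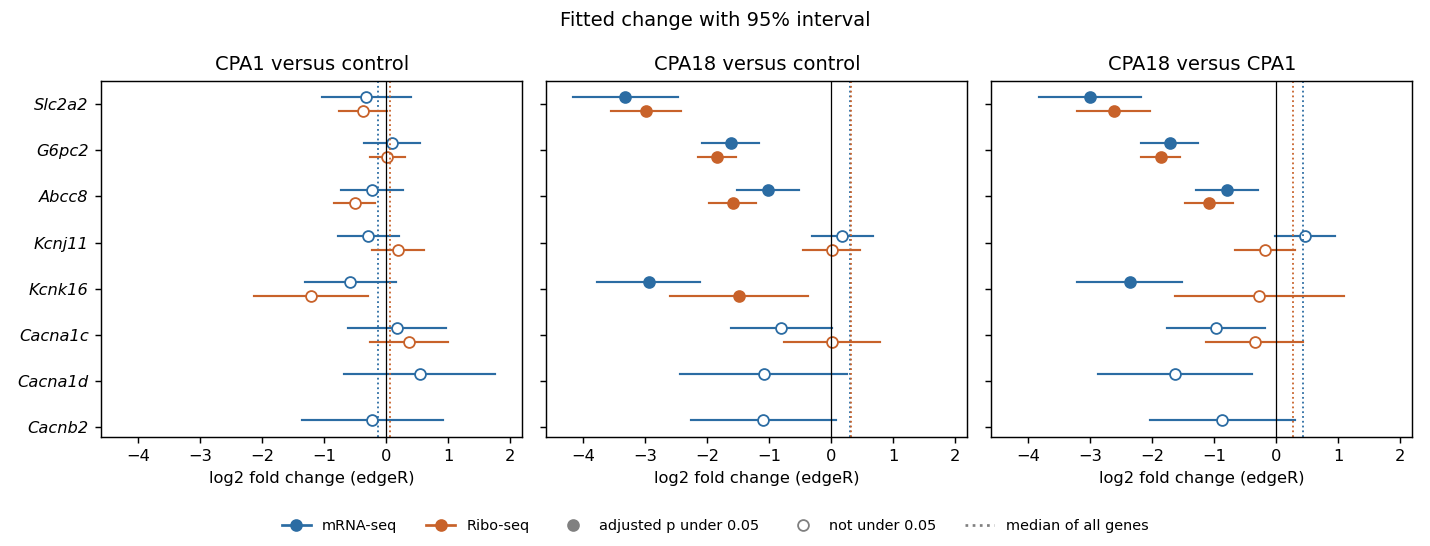
Fitted log2 fold change of each gene with its 95% interval for the 3 comparisons, in mRNA-seq (blue) and Ribo-seq (orange), with filled symbols at an adjusted p under 0.05 and dotted lines at the median of all genes. Slc2a2, at -3.33 in mRNA-seq and -2.99 in Ribo-seq, and Kcnk16, at -2.95 and -1.49, have overlapping intervals for CPA18 against control, and the intervals of Kcnj11 include 0 in all comparisons.

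Slc2a2 fell in both assays. Its mRNA level was 39.6, 15.1 and 18.4 RPKM in the control libraries of experiments 1, 2 and 3, 19.7, 18.3 and 17.1 in CPA1, and 0.94, 3.60 and 1.30 in CPA18. All CPA18 libraries were below all control and CPA1 libraries, and CPA1 lay within the range of control. Behind the CPA18 values stood 3, 44 and 6 reads. The log2 change of CPA18 against control was -3.33 ± 0.43 (SE; edgeR adjusted p = 1.45e-05) and against CPA1 -3.01 ± 0.42 (edgeR adjusted p = 3.87e-05). Experiment 2 had the smallest fall (-2.07, against -5.40 and -3.83), and without it the fitted change against control was -4.48, and -2.72 without experiment 1. Without experiment 2 the change against CPA1 was -3.94.

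Ribosome footprints on Slc2a2 followed, with 89.1, 124 and 72.2 RPKM in control, 71.95, 85.2 and 61.2 in CPA1 and 16.2, 7.66 and 10.5 in CPA18. The CPA18 libraries again lay below all others, and CPA1 overlapped with control although each CPA1 library was lower than the control of its experiment. The log2 change was -2.99 ± 0.29 in CPA18 against control (edgeR adjusted p = 1.44e-17) and -0.37 ± 0.20 in CPA1 against control (edgeR adjusted p = 0.336).

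G6pc2 fell in both assays. In mRNA-seq it was at 565, 274 and 301 RPKM in control, 475, 292 and 419 in CPA1 and 132, 103 and 116 in CPA18. In Ribo-seq the values were 1512, 1522 and 1304 in control, 1609, 1600 and 1228 in CPA1 and 461, 397 and 357 in CPA18. The CPA18 libraries were below every other library in both assays, and control and CPA1 overlapped. The log2 change of CPA18 against control was -1.63 ± 0.24 in mRNA-seq (edgeR adjusted p = 5.34e-05) and -1.85 ± 0.16 in Ribo-seq (edgeR adjusted p = 5.93e-21). The changes in experiments 1, 2 and 3 were -2.10, -1.41 and -1.37 in mRNA-seq and -1.72, -1.94 and -1.87 in Ribo-seq. The fit without the experiment as a block lost the mRNA-seq call against control (edgeR adjusted p = 0.110) and against CPA1 (edgeR adjusted p = 0.0903) and kept both Ribo-seq calls. For CPA1 against control the values were 0.096 (95% interval -0.35 to 0.55) in mRNA-seq and 0.022 (-0.26 to 0.31) in Ribo-seq.

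Of the genes of the KATP channel, Abcc8 fell and Kcnj11 did not pass the test. They are neighbours on chromosome 7, Kcnj11 at 46097123 to 46100952 and Abcc8 at 46104523 to 46180039 in GRCm38.p6, with 3570 bases between them. Abcc8 was at 58.3, 56.5 and 65.5 RPKM in control mRNA-seq, 41.8, 41.6 and 73.3 in CPA1 and 20.7, 38.3 and 30.2 in CPA18. All CPA18 libraries lay below all control and CPA1 libraries, and CPA1 spread around control. The log2 change against control was -1.02 ± 0.26 (edgeR adjusted p = 0.00678) and against CPA1 -0.79 ± 0.26 (edgeR adjusted p = 0.0255). The call against control was lost without experiment 1 (-0.81, edgeR adjusted p = 0.123), without experiment 3 (-0.98, edgeR adjusted p = 0.0731) and without the block (edgeR adjusted p = 0.262). The call against CPA1 was lost without experiment 1 (-0.70, edgeR adjusted p = 0.171), without experiment 3 (-0.53, edgeR adjusted p = 0.353) and without the block (edgeR adjusted p = 0.334).

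Footprints on Abcc8 fell in CPA18. They went from 122, 124 and 96.4 RPKM in control to 76.8, 87.1 and 76.1 in CPA1 and 36.2, 33.9 and 40.2 in CPA18. The 3 treatments did not overlap. Footprints in CPA18 gave a log2 change of -1.59 ± 0.19 against control (edgeR adjusted p = 3.38e-12) and -1.08 ± 0.20 against CPA1 (edgeR adjusted p = 3.87e-06). CPA1 against control gave -0.51 ± 0.17, just above the threshold (edgeR adjusted p = 0.0503). It passed with TMM (edgeR adjusted p = 0.0333), with the total without Ins1, Ins2 and Lars2 (edgeR adjusted p = 0.0401), with DESeq2 (adjusted p = 0.0408), with transcripts that had reads in all 18 libraries (edgeR adjusted p = 0.0440) and without experiment 3 (edgeR adjusted p = 0.0257).

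Kcnj11 was at 40.6, 66.3 and 75.3 RPKM in control mRNA-seq, 29.1, 47.0 and 77.0 in CPA1 and 39.0, 93.3 and 76.1 in CPA18. In Ribo-seq it was at 41.8, 40.5 and 42.6 RPKM in control, 56.7, 48.1 and 38.0 in CPA1 and 54.8, 36.4 and 37.5 in CPA18. Treatments overlapped in both assays, and the mRNA-seq libraries of experiment 1 were the lowest of their treatment. The log2 change of CPA18 against control was 0.18 (95% interval -0.31 to 0.67) in mRNA-seq and 0.0082 (-0.46 to 0.47) in Ribo-seq. The sign turned with the scaling, to -0.19 with TMM, -0.15 with DESeq2 and -0.043 with the total without Ins1, Ins2 and Lars2 in mRNA-seq, and to -0.30, -0.32 and -0.18 in Ribo-seq.

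The ratio of Kcnj11 to Abcc8 within a library is free of the library total. In mRNA-seq it was 0.697, 1.17 and 1.15 in control, 0.696, 1.13 and 1.05 in CPA1 and 1.88, 2.44 and 2.52 in CPA18. In Ribo-seq it was 0.341, 0.328 and 0.442 in control, 0.738, 0.552 and 0.499 in CPA1 and 1.52, 1.07 and 0.933 in CPA18. The CPA18 libraries were above all others in both assays, CPA1 overlapped with control in mRNA-seq, and in Ribo-seq CPA1 lay between control and CPA18 without overlap. From control to CPA18 the ratio was higher in each experiment, by a mean of 1.21 ± 0.20 on the log2 scale (SD, n = 3) in mRNA-seq and 1.65 ± 0.54 in Ribo-seq. This pair and the pair of glucose transporters below are the 2 ratios computed, and both were chosen after their values were seen, so they are given without a test.

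**Figure D3:**
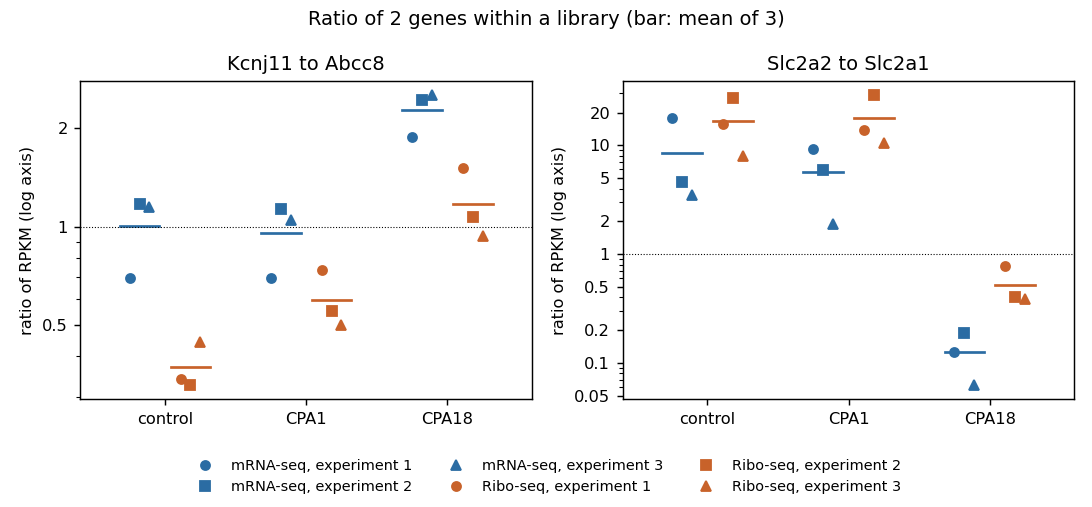
Ratio of RPKM within each library (log axis) for Kcnj11 to Abcc8 and Slc2a2 to Slc2a1, in mRNA-seq (blue) and Ribo-seq (orange), with 1 symbol per experiment, a bar at the mean of 3 and a dotted line at equal levels. Kcnj11 to Abcc8 is 1.88 to 2.52 in CPA18 mRNA-seq against 0.697 to 1.17 in control, and Slc2a2 to Slc2a1 lies above 1 in control and CPA1 and below 1 in CPA18.

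Kcnk16 fell in mRNA-seq from 4.05, 20.6 and 16.7 RPKM in control to 1.02, 2.58 and 1.41 in CPA18, with 5.41, 7.26 and 13.6 in CPA1. The control of experiment 1 rested on 5 reads and lay far below the other controls, yet all CPA18 libraries were below all control and CPA1 libraries. The log2 change was -2.95 ± 0.43 against control (edgeR adjusted p = 5.04e-05) and -2.37 ± 0.43 against CPA1 (edgeR adjusted p = 5.36e-04). The first was -2.26 by limma on log2(RPKM + 1), and the second was lost without the block (edgeR adjusted p = 0.0841) and became -2.97 without experiment 2. Footprints on Kcnk16 were at 11.8, 10.0 and 10.1 RPKM in control, 5.70, 4.30 and 3.59 in CPA1 and 2.52, 4.16 and 3.81 in CPA18. Both CPA groups lay below control without overlap and overlapped with each other. The CPA18 values came from 1, 2 and 5 reads.

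Kcnk16 footprints had a log2 change of -1.49 ± 0.57 in CPA18 (edgeR adjusted p = 0.0365) and -1.21 ± 0.47 in CPA1 (edgeR adjusted p = 0.123). The CPA18 call was lost with DESeq2 (adjusted p = 0.0690), without experiment 1 (-1.33, edgeR adjusted p = 0.138), 2 (-1.58, edgeR adjusted p = 0.100) or 3 (-1.64, edgeR adjusted p = 0.152), and without the control library of experiment 2 (-1.52, edgeR adjusted p = 0.0872).

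The L-type calcium channel genes did not pass the test in any comparison. Cacna1c was at 2.55, 1.08 and 1.08 RPKM in control mRNA-seq, 2.74, 2.06 and 0.590 in CPA1 and 0.770, 0.765 and 0.870 in CPA18. The CPA18 libraries lay below the controls without overlap, and the CPA1 library of experiment 3 was below both. Its change in CPA18 was, on the log2 scale, -0.80 (95% interval -1.62 to 0.013) against control (edgeR adjusted p = 0.157) and -0.97 (-1.77 to -0.18) against CPA1 (edgeR adjusted p = 0.0787). The latter passed with TMM (-1.55, edgeR adjusted p = 0.0220), with the total without Ins1, Ins2 and Lars2 (-1.47, edgeR adjusted p = 0.0304), with DESeq2 (-1.44, adjusted p = 0.0206) and without experiment 3 (-1.55, edgeR adjusted p = 0.0112). Its footprints, at 2.55, 2.89 and 1.99 RPKM in control, 4.12, 3.99 and 1.73 in CPA1 and 2.62, 4.72 and 1.08 in CPA18, overlapped between all treatments.

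Cacna1d, with 1 to 14 reads per library, was at 1.08, 0.412 and 0.236 RPKM in control mRNA-seq, 0.952, 0.731 and 0.410 in CPA1 and 0.0877, 0.233 and 0.253 in CPA18. The CPA18 libraries overlapped with control and lay below CPA1. The log2 change was -1.09 (95% interval -2.45 to 0.26) against control and -1.63 (-2.88 to -0.39) against CPA1 (edgeR adjusted p = 0.0597). The change against CPA1 passed with TMM (-2.21, edgeR adjusted p = 0.0171), with the total without Ins1, Ins2 and Lars2 (-2.13, edgeR adjusted p = 0.0218) and with DESeq2 (-2.14, adjusted p = 0.0244). It was smaller by limma on log2(RPKM + 0.5) (-0.775, adjusted p = 0.140) and log2(RPKM + 1) (-0.501, adjusted p = 0.158). Without experiment 1 the change against control was -0.44.

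Cacnb2 was at 4.94, 1.26 and 0.640 RPKM in control mRNA-seq, 2.19, 1.02 and 1.21 in CPA1 and 0.832, 0.914 and 0.423 in CPA18, and the treatments of control and CPA18 overlapped. Its log2 change in CPA18 against control was -1.09 (95% interval -2.27 to 0.082). In Ribo-seq, where it did not reach the count minimum, it was at 0.620, 0.827 and 2.36 RPKM in control, 2.50, 3.88 and 2.19 in CPA1 and 7.65, 3.76 and 1.39 in CPA18, from 2 to 10 reads. Cacna1d was at 1.08, 1.66 and 0.617 RPKM in control footprints, 0.431, 0.281 and 0.723 in CPA1 and 0.648, 0.566 and 0.603 in CPA18. At these depths a difference in the footprints of either gene was not detectable.

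After 1 h of CPA none of these genes passed the test. In CPA1 against control, 0 of 8 genes passed in mRNA-seq, where 0.152% of all tested genes did, and 0 of 6 passed in Ribo-seq, where 5.75% did, 2.49% lower and 3.26% higher (edgeR). At an unadjusted p under 0.05 0 of the genes passed in mRNA-seq, where 607 of 10544 did, and 2 in Ribo-seq, Abcc8 and Kcnk16, where 1345 of 7981 did. By DESeq2, 0 passed in mRNA-seq, where 39 genes of the whole table did, and 1 in Ribo-seq, Abcc8, where 326 did. The median change of the genes in mRNA-seq was -0.23, beside -0.13 for all genes, and in Ribo-seq -0.17, beside 0.058. From CPA1 to CPA18, 4 of 8 genes fell in mRNA-seq, where 4.15% of all genes did, and 3 of 6 (Slc2a2, G6pc2 and Abcc8) fell in Ribo-seq, where 6.11% did. With TMM, DESeq2 and the total without Ins1, Ins2 and Lars2, 6 of 8 passed in mRNA-seq, with Cacna1c and Cacna1d added. All genes called from CPA1 to CPA18 split into 2430 higher and 438 lower in mRNA-seq, and into 999 and 1278 with TMM, 965 and 921 with DESeq2 and 1305 and 1096 with the total without Ins1, Ins2 and Lars2. In Ribo-seq the split was 1266 and 488, and 715 and 809 with TMM, 491 and 527 with DESeq2 and 866 and 673 with the other total. Both CPA18 comparisons share the CPA18 libraries and are not independent of each other.

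Ribosome occupancy (riboocp), the Ribo-seq RPKM divided by the mRNA-seq RPKM of the same experiment, did not change detectably for these genes. By the interaction of assay and treatment (edgeR), 0 of 6 genes passed in CPA1 against control (0.0890% of 7866 genes), in CPA18 against control (0.318%, of which 0.305% higher and 0.0127% lower) and in CPA18 against CPA1 (0.0636%, of which 0.0509% higher and 0.0127% lower). At an unadjusted p under 0.05 the counts were 0, 0 and 1, the last being Kcnk16, beside 508, 660 and 445 of all 7866 genes. DESeq2 gave 0 in each. Both RPKM are scaled to the whole transcript, whereas footprints come mostly from its coding part. Occupancy compared between genes therefore also depends on the coding share of each mRNA, which was not examined. In control cells mean occupancy was highest for Slc2a2 (2.25, 8.18 and 3.92) and G6pc2 (2.68, 5.56 and 4.34). Their ranges overlapped with Kcnk16 (2.92, 0.487 and 0.608), Cacna1d (1.00, 4.04 and 2.61) and Cacnb2 (0.126, 0.659 and 3.69). The range of Slc2a2 also overlapped with Cacna1c (0.999, 2.676 and 1.84). Occupancy was 2.10, 2.19 and 1.47 for Abcc8 and 1.03, 0.612 and 0.566 for Kcnj11, and the ranges of Abcc8 and Kcnj11 did not overlap. This gap was not corrected for the coding share of the 2 genes and is not a measure of their translation alone.

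For G6pc2 in CPA18 occupancy was 3.49, 3.84 and 3.07, within the range of control, with a log2 difference of -0.22 (95% interval -0.79 to 0.35). For Abcc8 it was 1.75, 0.886 and 1.33, lower than control in each experiment, with -0.59 (-1.22 to 0.048). Slc2a2 varied most, with 17.3, 2.13 and 8.12 in CPA18, and the difference of 0.22 had an interval of -0.74 to 1.18. Behind these CPA18 values stood 7, 4 and 15 footprint reads and 3, 44 and 6 mRNA-seq reads. Kcnk16 had an occupancy of 1.05, 0.593 and 0.264 in CPA1 and 2.46, 1.62 and 2.71 in CPA18 without overlap, a log2 difference of 2.07 ± 0.84 (edgeR adjusted p = 0.814), from 1 to 7 footprint reads per library.

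**Figure D4:**
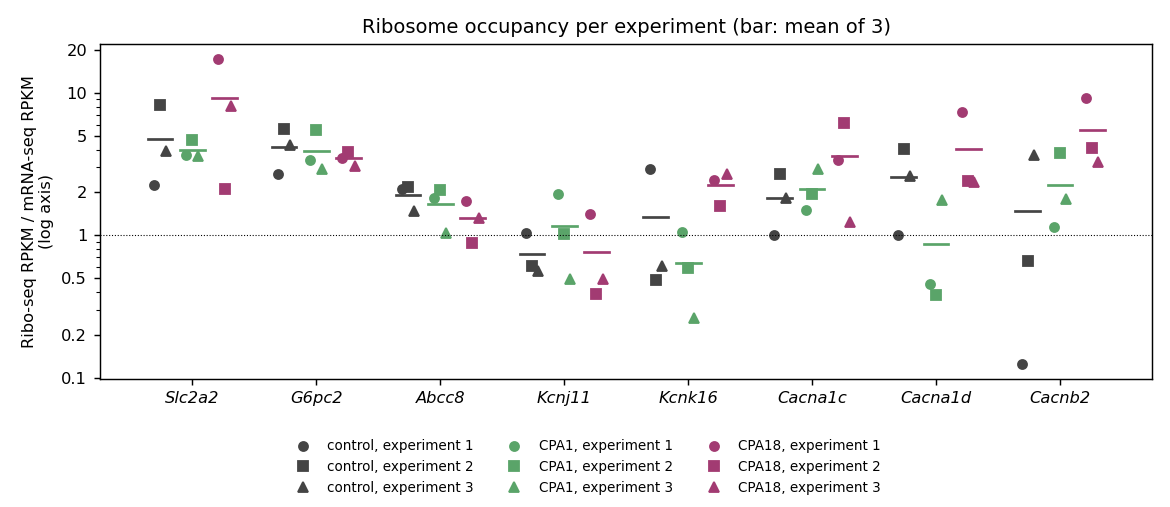
Ribo-seq RPKM divided by mRNA-seq RPKM of the same experiment (log axis) for each of the 8 genes in control, CPA1 and CPA18, with 1 symbol per experiment, a bar at the mean of 3 and a dotted line at 1. Abcc8 (1.47 to 2.19) lies above Kcnj11 (0.566 to 1.03) in control, and the treatments overlap for each gene except Kcnk16 and Cacna1d between CPA1 and CPA18. RPKM is scaled to the whole transcript, so differences between genes also depend on the coding share of each mRNA.

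Around these genes, the genes of 5 other lists (113 genes of glucose entry and phosphorylation, glycolysis and pyruvate entry, potassium channels, calcium channel subunits, and sodium, chloride and other cation channels with the sodium pump) moved in both directions. In mRNA-seq of CPA18 against control, 7 of 68 tested genes rose and 10 fell (edgeR), against the 18.9% and 7.13% of all genes. With TMM scaling 4 rose and 23 fell, with DESeq2 3 and 21, and with the total without Ins1, Ins2 and Lars2 6 and 18. The calls over all genes moved too, from 1990 higher and 752 lower to 1179 and 1677 with TMM. They were 962 and 1299 with DESeq2 and 1694 and 1319 with the other total. Without the block 0 rose and 1 fell, and without experiment 1 the counts were 3 and 2, without experiment 2 7 and 7, and without experiment 3 2 and 8. In Ribo-seq 6 of 50 rose and 7 fell, against 21.6% and 6.88% of all genes. These counts became 3 and 11 with TMM, 2 and 8 with DESeq2 and 4 and 8 with the total without Ins1, Ins2 and Lars2. Without experiment 2 they were 4 and 2. Over all genes the Ribo-seq calls were 919 higher and 956 lower with TMM and 520 and 617 with DESeq2. With the other total they were 1192 and 754.

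Of the 4 tested genes for glucose entry and phosphorylation, Slc2a1 rose in both assays of CPA18 against control and G6pc3 in Ribo-seq. Slc2a1 encodes GLUT1, the transporter of most other cell types. Its mRNA was at 2.24, 3.31 and 5.33 RPKM in control, 2.13, 3.08 and 9.03 in CPA1 and 7.51, 19.0 and 20.5 in CPA18, and its footprints at 5.68, 4.599 and 8.97, 5.24, 2.97 and 5.78, and 20.8, 19.1 and 27.4. CPA18 overlapped with CPA1 in mRNA-seq, through the CPA1 library of experiment 3, and with no other group in either assay. The log2 change of CPA18 against control was 2.18 ± 0.38 in mRNA-seq (edgeR adjusted p = 3.46e-04) and 1.78 ± 0.39 in Ribo-seq (edgeR adjusted p = 1.08e-04), and of 13 alternatives each, the mRNA-seq call was lost without the block (edgeR adjusted p = 0.122). G6pc3, another glucose-6-phosphatase catalytic subunit, is named after its values were seen. Its footprints went from 71.0, 72.7 and 61.3 RPKM in control to 129, 104 and 138 in CPA18 without overlap, a log2 change of 0.86 ± 0.22 (edgeR adjusted p = 0.00140) that lost its call with TMM, with DESeq2 and without experiment 3. Its mRNA-seq change was 0.71 ± 0.33 (edgeR adjusted p = 0.111). Against CPA1 it rose in both assays, by 1.36 ± 0.32 in mRNA-seq (edgeR adjusted p = 0.00430) and 1.06 ± 0.24 in Ribo-seq (edgeR adjusted p = 2.36e-04), the first of which was lost in 3 of 12 alternatives (no block, TMM and without experiment 1).

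The ratio of Slc2a2 to Slc2a1 was 17.7, 4.58 and 3.46 in control mRNA-seq, 9.23, 5.92 and 1.89 in CPA1 and 0.125, 0.190 and 0.0632 in CPA18. In Ribo-seq it was 15.7, 26.9 and 8.05 in control, 13.7, 28.7 and 10.6 in CPA1 and 0.778, 0.4003 and 0.385 in CPA18. Thus GLUT2 reads per length exceeded those of GLUT1 in each control and CPA1 library and were fewer in each CPA18 library.

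Of 19 tested genes of glycolysis and pyruvate entry, 3 rose and 1 fell in mRNA-seq of CPA18. Ldha, which encodes the lactate dehydrogenase subunit that β-cells normally keep low, was at 11.1, 49.8 and 38.2 RPKM in control and 0.434, 17.2 and 13.1 in CPA18, a log2 change of -1.78 ± 0.40 (edgeR adjusted p = 0.00346). Slc16a1, the lactate and pyruvate transporter MCT1 and likewise low in β-cells, went from 1.30, 0.686 and 0.844 RPKM to 5.63, 3.13 and 3.26, a log2 change of 2.03 ± 0.46 (edgeR adjusted p = 0.00324). The ranges of Ldha overlapped and those of Slc16a1 did not. The CPA18 values of Ldha came from 1, 143 and 41 reads and the control values of Slc16a1 from 3, 5 and 9. Both calls were lost without the block (edgeR adjusted p = 0.297 and 0.0726). Pdhb, of pyruvate dehydrogenase, and Mpc2, of the mitochondrial pyruvate carrier, rose by 1.195 ± 0.31 (edgeR adjusted p = 0.00788) and 1.05 ± 0.30 (edgeR adjusted p = 0.0156). Of 13 alternatives, Pdhb lost its call in 3 and Mpc2 in 5, among them the fits without experiment 1 and without experiment 3. In Ribo-seq Slc16a1 rose (1.34 ± 0.40, edgeR adjusted p = 0.00626), a call lost with DESeq2 and without experiment 1. Ldha (-0.93 ± 0.53, edgeR adjusted p = 0.181), Pdhb (0.41 ± 0.23, edgeR adjusted p = 0.176) and Mpc2 (0.44 ± 0.32, edgeR adjusted p = 0.316) did not pass there.

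Of 17 tested potassium channel genes, 2 rose and 2 fell. Kcnk9, another two-pore channel (TASK-3), fell beside Kcnk16, from 32.4, 11.8 and 12.1 RPKM in control to 4.77, 2.03 and 1.72 in CPA18, without overlap. Its log2 change was -2.73 ± 0.31 in mRNA-seq (edgeR adjusted p = 3.01e-06) and -1.58 ± 0.26 in Ribo-seq (edgeR adjusted p = 1.54e-07), and both calls held in all 13 alternatives. Kcnh2, the voltage-gated channel hERG, rose, with a log2 change of 1.43 ± 0.38 in mRNA-seq (edgeR adjusted p = 0.00895) and 1.95 ± 0.40 in Ribo-seq (edgeR adjusted p = 3.87e-05). Its mRNA was at 2.57, 5.02 and 4.28 RPKM in control and 4.31, 14.8 and 14.1 in CPA18. These ranges overlapped through the CPA18 library of experiment 1, and those of its footprints did not overlap. Of 13 alternatives the mRNA-seq call was lost in 3, among them the fit without experiment 3, and the Ribo-seq call in 0. Kcnn1, a calcium-activated channel, rose by 1.76 ± 0.56 (edgeR adjusted p = 0.0257) and Kcnh6 fell by 2.01 ± 0.61 on the log2 scale (edgeR adjusted p = 0.0195). The first lost its call in 6 of 11 alternatives and the second in 3 of 13, both without experiment 1 and without experiment 3, and Kcnn1 also without experiment 2. In Ribo-seq Kcnh6 gave -0.51 ± 0.54 (edgeR adjusted p = 0.515), and Kcnn1 did not reach the count minimum. In mRNA-seq Kcnn1 had 1, 6 and 7 reads in control and Kcnh6 had 2, 10 and 2 in CPA18.

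Of 9 tested genes for other calcium channel subunits, 0 passed in mRNA-seq of CPA18 (edgeR). In Ribo-seq the calls were Gem, an inhibitor of calcium channels, and Cacna2d1, an auxiliary subunit, in CPA1 (log2 changes of 1.84 and -0.81), and Cacna2d1 and Rem2, a relative of Gem, in CPA18 (-0.71 and -2.10). These 3 genes were named after their values were seen, and each call was lost in 4 or more of its alternatives, including for Gem (edgeR) the fits without experiment 1, without experiment 2 and without the control library of experiment 2. The footprints of Rem2 in CPA18 came from 1, 0 and 3 reads. Of 19 genes in the list of sodium, chloride and other channels tested in mRNA-seq, 1 rose and 7 fell, beside 18.9% and 7.13% of all genes. The rise was that of Lrrc8a, a volume-regulated anion channel subunit (0.93 ± 0.31, edgeR adjusted p = 0.0310). Scn3a, a voltage-gated sodium channel pore subunit, had a log2 change of -2.54 ± 0.81 (edgeR adjusted p = 0.0259), from 0 to 10 reads per library. Both of these calls were lost without the block, without experiment 1 and without experiment 3. In Ribo-seq Scn3a gave -0.011 ± 0.65 (edgeR adjusted p = 0.994), and Lrrc8a rose (0.91 ± 0.34, edgeR adjusted p = 0.0310), a call lost in 7 of 13 alternatives, among them those without experiment 2 and without experiment 3. Of 13 genes of this list tested in Ribo-seq, 1 rose and 2 fell, beside 21.6% and 6.88% of all genes. Both genes that fell there were also called lower in mRNA-seq.

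**Figure D5:**
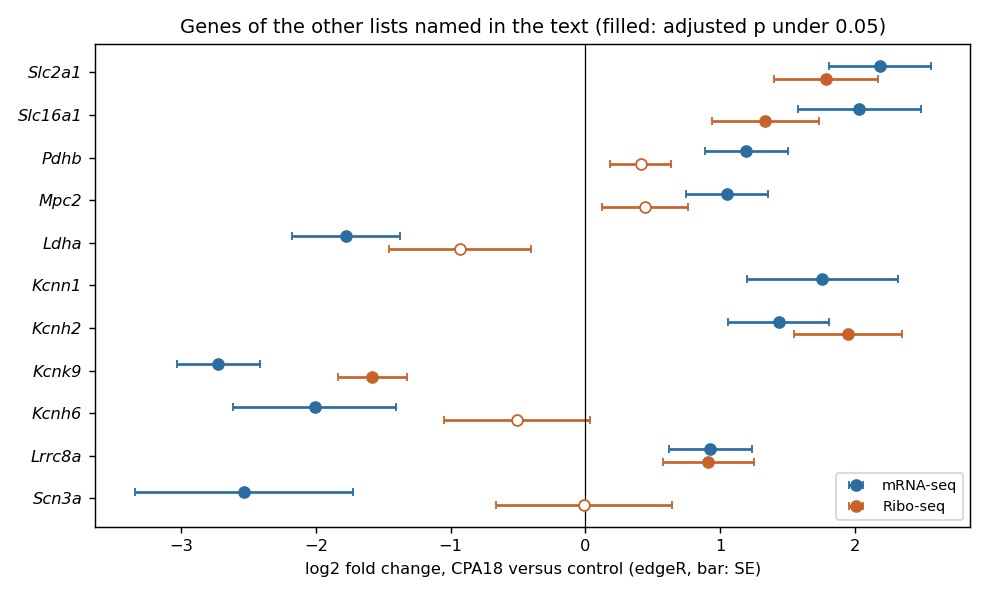
Fitted log2 fold change of CPA18 against control with its SE for the named genes of the other lists, in mRNA-seq (blue) and Ribo-seq (orange, where the gene reached the count minimum), filled at an adjusted p under 0.05. Slc2a1 lies at 2.18 and Kcnk9 at -2.73 in mRNA-seq, with the same direction in Ribo-seq.

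Over the 9 mRNA-seq libraries, the genes closest in pattern to each of the 8 were listed by Pearson correlation of log2(RPKM + 0.5) among 4420 genes with a mean of at least 50 reads. For Slc2a2 they were Soat1 (r = 0.98), Ociad2 (0.97) and Slc30a8 (0.96), and for G6pc2 Cltrn, Cdh1 and Sez6l (0.98 each). For Abcc8 they were Igfbp7 (0.98), Aard (0.97) and Pnmal2 (0.96), and for Kcnk16 Nnat (0.97), Gm572 (0.96) and Cd9 (0.96). For Kcnj11 they were Ebp, H2az1 and Jmjd8 (0.99 each). For the calcium channel genes they were Irs1, Plagl1 and Twsg1 (Cacna1c, 0.95 each), Cbx5, Soga1 and Rfx6 (Cacna1d, 0.95 to 0.96) and Cd164, Vps35 and Lrpprc (Cacnb2, 0.95 to 0.96). Among the 8, Slc2a2 and G6pc2 were most alike (r = 0.91), Kcnj11 correlated with Abcc8 at 0.28 and with Cacna1c at -0.75. The points share treatment, experiment and depth, so these values describe 9 libraries.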

How the data were processed

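MIN6 libraries were grouped by the treatment, assay and replicate number in the labels. For the control pair of experiment 2, title and description disagree on the assay, and the title was used. Per the study's methods, the authors removed short and low-quality reads before Bowtie2 alignment to mouse RNA of GRCm38. The deposited counts are raw reads per RefSeq transcript, and the authors scaled them to the deposited RPKM by library total and transcript length. Recomputed RPKM differed by at most 0.00111 on the log2 scale. Of 30741 transcripts, 31 matched no RefSeq gene. How reads shared by transcripts of a gene were assigned is not given in the sources used here.

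Counts were summed per gene and tested with edgeR 4.0.16 (quasi-likelihood, R 4.3.3) where their mean was at least 5 per library, using total counts as library sizes, the experiment as a block and Benjamini-Hochberg adjustment over all genes tested, at a threshold of 0.05. The study kept transcripts with reads in all 18 libraries, which is an alternative here. Intervals are 1.96 SE to each side. Other alternatives were TMM, another total, DESeq2 1.42.0, limma 3.58.1 on log2 RPKM with pseudocounts of 0.5 and 1, no filter, the most-read transcript, no block and left-out libraries. The replicate number is called a batch in the labels. Deviations from treatment means correlated within experiments at r = 0.242 to 0.717 in mRNA-seq and 0.0596 to 0.177 in Ribo-seq, where 2 of 9 pairs lay under 0.1, so the pairing rests on the labels. The replicates came from independent experiments, and depth was 168129 to 4755030 counts, so low counts limit precision. The scripts were tested on simulated data.

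Named are the 8 genes, from each other list up to 3 rises and 3 falls called in mRNA-seq of CPA18 against control, and the 3 most correlated genes per member. Any other gene was picked with its values in view, as the text states. Some genes of the other lists are not reported here. Members and lists were chosen with earlier results of these data known. Python 3.11.15, pandas 2.3.3 and matplotlib 3.10.9 made tables and figures.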

Additional observations from a re-analysis of the deposited data

How the results depend on the processing

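Of 742 values of the 8 genes under the alternatives, 673 kept their direction and side of the threshold, 14 lost a call, 12 gained one and 43 changed sign, each of the latter without a call in the original fit. Without the replicate block, 2 of 8 genes passed in mRNA-seq of CPA18 against control and 1 of 8 against CPA1, in place of 4 each, while 138 genes of the whole table were called in place of 1990 higher and 752 lower, and 100 in place of 2430 higher and 438 lower, and no call of the 8 genes changed without the block in Ribo-seq or riboocp. In mRNA-seq of CPA18 against CPA1, 6 of 8 genes in place of 4 passed with TMM, with DESeq2 and with the total without Ins1, Ins2 and Lars2. In Ribo-seq of CPA1 against control, 1 gene in place of 0 (Abcc8) passed with TMM, with the total without Ins1, Ins2 and Lars2, with DESeq2, with transcripts read in all 18 libraries and, over left-out libraries, 0 to 1. Signs turned as follows, on the log2 scale. In mRNA-seq, G6pc2 in CPA1 was -0.023 by its most-read transcript, and Kcnj11 in CPA18 was -0.19 (TMM), -0.043 (other total) and -0.15 (DESeq2) against control and -0.034 (TMM) against CPA1. In Ribo-seq, G6pc2 in CPA1 was -0.015 (TMM), -0.032 (DESeq2) and -0.057 (most-read transcript). In CPA18 against control, Kcnj11 was -0.30 (TMM), -0.18 (other total) and -0.32 (DESeq2), and Cacna1c -0.036 (no block), -0.29 (TMM), -0.17 (other total) and -0.32 (DESeq2). With the other total, riboocp was -0.055 for Cacna1c in CPA1 and 0.099 for G6pc2 in CPA18 against CPA1. Over left-out libraries, the mRNA-seq change in CPA1 ran from -0.73 to 0.054 for Slc2a2, -0.093 to 0.29 for G6pc2, -0.23 to 0.53 for Cacna1c and -0.74 to 0.34 for Cacnb2. In Ribo-seq it ran from -0.011 to 0.079 for G6pc2 in CPA1, -0.16 to 0.13 for Kcnj11 and -0.45 to 0.47 for Cacna1c in CPA18, and -0.54 to 0.0078 for Kcnk16 in CPA18 against CPA1. For riboocp in CPA1 it ran from -0.45 to 0.33 for Slc2a2, -0.30 to 0.17 for G6pc2 and -0.023 to 0.53 for Cacna1c. For riboocp in CPA18 against control it ran from -0.55 to 1.79 for Slc2a2 and -0.44 to 0.070 for Kcnj11. For riboocp in CPA18 against CPA1 it ran from -0.10 to 1.54 for Slc2a2, -0.26 to 0.047 for G6pc2, -0.70 to 0.19 for Abcc8 and -0.041 to 1.41 for Cacna1c. The cause of these shifts was not tested. Alternatives for the other lists were chosen after seeing the data. Levels by the most-read transcript were lower for genes with several transcripts, for G6pc2 135 in place of 380 RPKM in control mRNA-seq. Ribo-seq CPA18 libraries had as few as 168129 counts, and reads on Kcnk16, Cacna1d and Cacnb2 were too few there to show moderate changes.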
